A study of Homo sapiens with 2 samples.

Results

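The genes examined were 7 histone variant genes whose mRNAs carry a poly(A) tail, namely H2AZ1, H2AZ2, H3-3A, H3-3B, H1-10, H2AX and MACROH2A1, among 12178 loci with a C-to-U edit site in either of 2 long-read libraries. Each PacBio locus was assigned to the same-strand GENCODE gene (hg38) whose exons it overlapped most, and each symbol received 1 locus. Every edit site of these 7 loci was taken, 64 of 121930 sites in the RBFOX2 library against 56 of 103684 in the enzyme-only library. They lay at 103 distinct positions, 17 of them listed in both libraries, and all fell in exons of the deposited isoform models.

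HEK293T cells, a line from human embryonic kidney (one label writes HEK293XT), had been methanol-fixed and exposed to purified APOBEC1-nanobody, a cytidine deaminase joined to a nanobody against rabbit IgG. The RBFOX2 library came from cells that first received a rabbit antibody against RBFOX2, and the enzyme-only library from cells given the enzyme without it. Both came from 1 unmodified line with endogenous RBFOX2, and each group was 1 library, so no p-value was computed and no spread between replicates is known. The question was which positions of these transcripts were edited near antibody-bound RBFOX2 and which were edited by the enzyme alone.

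Most histone mRNAs are made in S phase, lack introns and end in a stem-loop in place of a poly(A) tail. Variant histone genes are expressed outside S phase as well, and their polyadenylated mRNAs have longer 3'UTRs to which RNA-binding proteins can attach. RBFOX2 is a splicing regulator that recognises UGCAUG and is also known to bind 3'UTRs, and APOBEC1 prefers cytosines with A or U directly on the 5' side.

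Selected edit sites of each gene are shown first. The window around the UGCAUG of the H3-3B 3'UTR (hg38, chr17:75778343-75778372, minus strand) is printed 5' to 3' in DNA letters, with the hexamer and the 3 edited cytosines in capitals.
H3-3B window: gataCttCttgcttCtcatgaTGCATGttt
The site with the most converted reads in the RBFOX2 library is shown for each other member and for H3-3B, with 10 bases on each side and the edited cytosine in capitals. Both sites of H3-3A are given because it had no others.
H3-3B, chromosome 17, position 75778328: atgttaatgaCttgttgggta
H2AZ1, chromosome 4, position 99948209: attgagttgaCtgtttttaaa
H2AZ2, chromosome 7, position 44834344: tgttcttagaCtcgaagtttg
H3-3A, chromosome 1, position 226062738: ttcgcagccgCcgccgcgccg
H3-3A, chromosome 1, position 226071561: tagttctgaaCgttagatatt
H1-10, chromosome 3, position 129314818: ctcttcccttCattccatggg
H2AX, chromosome 11, position 119094297: ggacccaggcCtttcacatca
MACROH2A1, chromosome 5, position 135334815: ttgtttttgaCcttctaaaat

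The edit fraction in the tables was the number of converted reads over all reads of the gene, and only fractions above 0.2% were listed. A gene with many reads therefore needed more converted reads before a site could be listed, from 2 reads for H2AZ2, H1-10 and H2AX to 13 for H2AZ1 and H3-3B in the RBFOX2 library. A site absent from a table was not listed, which is not a fraction of 0. Summed over all loci, gene reads were 2431345 with the RBFOX2 antibody and 2233600 without it, and the median ratio of gene reads was 1.10. RBFOX2 itself had 247 and 221 gene reads, which does not check the antibody, and no marker gene was used to check the cell line, since only genes with sites were listed. For the 7 histone genes the read ratio ranged from 0.901 for H1-10 to 1.19 for H3-3B.

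Summed over the 7 genes, listed converted reads numbered 711 against 19127 gene reads in the RBFOX2 library, or 37.2 per 1000, and 290 against 17349 in the enzyme-only library, or 16.7 per 1000. Among the 787 well-covered genes defined below, the median was 29.2 per 1000 in the RBFOX2 library against 20.9 in the enzyme-only library. Higher listed editing in the RBFOX2 library was thus not particular to the histone variant genes. Listed editing did not go the same way in all 7 genes, but for H1-10 and H3-3A the difference was within counting error. So were the differences of H2AZ2 and H2AX in the number of sites listed in 1 library only. The same held for H3-3B at the listed limits, but not at a minimum of converted reads equal in both libraries. H2AZ1, H2AZ2 and H3-3B had more listed editing in the RBFOX2 library, H3-3A had the same 2 sites in both, and H1-10 had more in the enzyme-only library. H2AX had somewhat more in the RBFOX2 library, though the direction of its site ratio depended on the sites counted in the library totals. For MACROH2A1 the direction depended on the listing limit.

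Sites listed in both libraries were set aside as possible sequence variants, which left 47 unshared RBFOX2 sites and 39 unshared enzyme-only sites. The fractions of the shared sites ran from 0.207% to 0.812% of gene reads, and whether any was a variant was not tested. Scaled by the library totals of unshared sites, 109357 and 91111, the log2 ratio was 0.00 (95% interval −0.64 to 0.66). When both libraries were held to the same minimum of converted reads per gene, 47 and 20 sites remained and the log2 ratio was 0.85. At such a minimum, the median log2 ratio was 0.49 in genes with at least 5 sites and 500 reads. In genes with at least 20 sites it was 0.04. An equal number of reads is a higher fraction in the library with fewer gene reads. Without MACROH2A1 the log2 ratio of the histone variant genes was 0.75 at the listed limits. When only sites with at least 2 converted reads were counted in the library totals, which removed none of these 47 and 39, it was −0.60. All intervals are exact binomial intervals and cover counting error only.

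**Figure D1:**
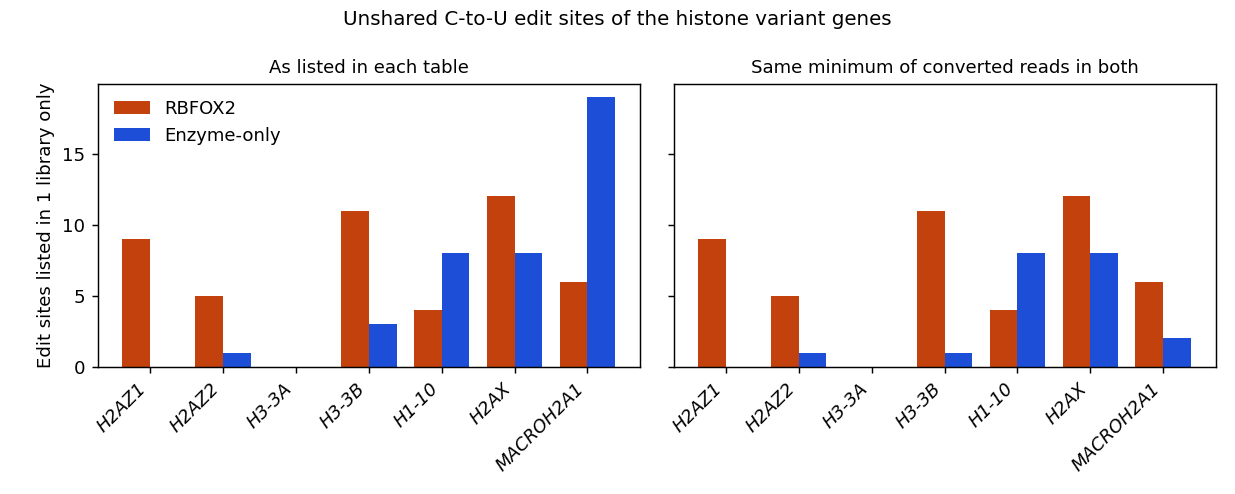
Number of edit sites listed in only 1 library for each histone variant gene (bars, RBFOX2 in orange and enzyme-only in blue). The left panel shows the sites as listed and the right panel those above a minimum of converted reads shared by both libraries. MACROH2A1 fell from 19 to 2 enzyme-only sites between the panels, while H2AZ1 had 9 and H3-3B 11 RBFOX2 sites in both.

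H3-3B encodes the replication-independent histone H3.3, which is placed in active genes and at other sites outside DNA replication. Its locus (PB.45017, chromosome 17, 75776436 to 75779934, minus strand) had 29 isoform models, 6281 gene reads in the RBFOX2 library against 5280 in the enzyme-only library. It had 15 RBFOX2 sites and 7 enzyme-only sites, 4 of them in both. Converted reads summed over all listed sites were 52.7 per 1000 gene reads in the RBFOX2 library against 19.1 in the enzyme-only library. Among 787 well-covered genes, those with 500 or more reads in each library, 71.7% had a lower value than H3-3B in the RBFOX2 library against 46.4% in the enzyme-only library.

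H3-3B was the only one of the 7 genes with edit sites within 50 nt of UGCAUG. The hexamer lay at 75778346 to 75778351, beginning 244 nt after the stop codon, in 28 of the 29 isoforms, all of it in the 3'UTR of the last exon. Of 13 exonic cytosines within 50 nt, 5 were listed in the RBFOX2 library (38.5%, 95% interval 13.9 to 68.4) against 1 in the enzyme-only library (7.69%, 0.195 to 36.0). From 51 to 200 nt the shares were 13.0% and 6.52% of 46 cytosines, and beyond 200 nt 0.577% and 0.433% of 693. Only 309 of those 693 lay in the 3'UTR, as did all cytosines at the nearer distances. The shares beyond 200 nt thus do not compare like regions. All 5 edited cytosines near the hexamer had A or U on the 5' side, as did 8 of the 13.

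The 2 most distant of these sites on the 5' side were close together. Position 75778368, 17 nt before the hexamer, had 34 converted reads in the RBFOX2 library (0.541%, 0.375 to 0.756). Position 75778365, 14 nt before it, had 18 converted reads (0.287%, 0.170 to 0.453). Neither was listed in the enzyme-only library, where up to 10 converted reads (0.189%) would have gone unlisted. The difference at 75778368 was thus at least 2.86-fold, if no other filter removed the site.

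Nearer to the hexamer, position 75778358, 7 nt before it, had 33 converted reads in the RBFOX2 library (0.525%, 0.362 to 0.737), at least 2.77-fold above the enzyme-only limit. Position 75778342, 4 nt after the hexamer, had 14 converted reads (0.223%, 0.122 to 0.374) and was also listed only in the RBFOX2 library. On the 3' side, position 75778328, 18 nt after it, was listed in both. It had 51 converted reads in the RBFOX2 library (0.812%, 0.605 to 1.07) against 19 in the enzyme-only library (0.360%, 0.217 to 0.561), a ratio of 2.26 (1.31 to 4.05).

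A site was called higher in a library where the interval of its fraction lay above that of the other library, with an unlisted site put at the highest unlisted number of reads. By this rule 3 of the 103 histone variant sites were higher in the RBFOX2 library, the H3-3B positions 75778368, 75778358 and 75778328, and 0 were higher in the enzyme-only library. Only H2AZ1, H3-3A and H3-3B had sites with more than 5 converted reads. Sites of the other members rested on 2 to 5, too few for the intervals to separate. The rule could not call those sites in either direction, so their absence from the count is not evidence of equal editing. Over all 14093 sites of well-covered genes, 0.255% were called higher in the RBFOX2 library against 0.0% in the enzyme-only library. Those 36 sites lay in 20 genes and 17 of them lay within 50 nt of UGCAUG, the 3 of H3-3B included. Sites with too few converted reads for a call are part of both totals, 103 and 14093, which were not matched for depth. Their called shares thus do not compare like with like.

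Converted reads at the 5 sites near the hexamer summed to 150 in the RBFOX2 library, or 23.9 per 1000 gene reads. The enzyme-only library listed 3.60 per 1000 there and could have held at most 11.2, so the difference was at least 2.14-fold at these sites, which were chosen for being listed. From 51 to 200 nt the listed values were 19.9 per 1000 in the RBFOX2 library against 9.28 in the enzyme-only library, and beyond 200 nt 8.92 and 6.25. By the same bound, the difference at the RBFOX2 sites was at least 1.42-fold from 51 to 200 nt and at least 1.15-fold beyond 200 nt. Those sites too were chosen for being listed in the RBFOX2 library. Sites listed only in the enzyme-only library, present in both ranges, were left out, so these bounds do not hold for all cytosines there. More converted reads were thus listed in the RBFOX2 library at each distance, and the difference between distances was not tested.

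**Figure D2:**
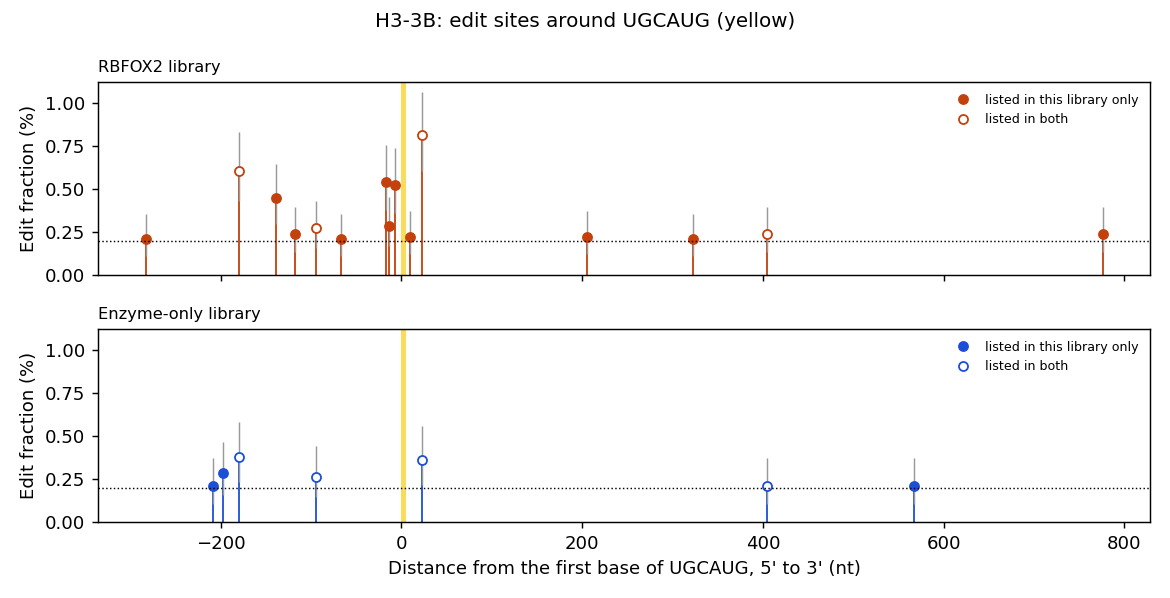
Edit fraction (% of gene reads) of each H3-3B site by distance from the first base of UGCAUG (nt, 5' to 3'), RBFOX2 library above and enzyme-only library below. Grey lines are exact 95% intervals, filled points were listed in 1 library, open points in both, and the dotted line is the listing limit of 0.2%. In the RBFOX2 library 5 sites flank the hexamer (yellow), against 1 in the enzyme-only library.

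Outside that cluster, the strongest H3-3B site was at 75778531, with 38 converted reads in the RBFOX2 library (0.605%) against 20 in the enzyme-only library (0.379%), a ratio of 1.60 (0.906 to 2.90). Position 75778446 had 17 and 14 reads, a ratio of 1.02 (0.474 to 2.24), and position 75777947 had 15 and 11, a ratio of 1.15 (0.492 to 2.76). These 3 shared sites did not differ beyond counting error. The strongest site listed only in the enzyme-only library was 75778549, with 15 reads (0.284%), 198 nt before the hexamer. Counted as unshared sites, 11 stood against 3, a scaled log2 ratio of 1.45 (−0.31 to 4.09). At the common minimum of 13 converted reads 11 stood against 1, a log2 ratio of 2.58 (0.32 to 8.53). The share of exonic cytosines listed as unshared sites is called editsC here. It is modelled on the editsC of the study, but uses sites listed per gene and laid on every isoform model that holds them. Along the isoforms it ranged from 0.649% to 10.4% for the RBFOX2 sites and from 0.418% to 2.60% for the enzyme-only sites. Reads were given per gene, so the depth of each isoform is unknown.

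H3-3A encodes the same H3.3 protein from another locus (PB.4606, chromosome 1, 226061842 to 226072001, plus strand). It had 3127 gene reads in the RBFOX2 library against 3227 in the enzyme-only library, and its exons, with 367 cytosines, held no UGCAUG or GCAUG. The same 2 positions were listed in both libraries and no other. In the 5'UTR, position 226062738 had 13 converted reads in the RBFOX2 library (0.416%) against 16 in the enzyme-only library (0.496%), a ratio of 0.838 (0.371 to 1.86). In the 3'UTR, position 226071561, 82 nt after the stop codon, had 7 and 9 converted reads (0.224% and 0.279%), a ratio of 0.803 (0.254 to 2.42). Neither site differed beyond counting error, and the intervals still allow a difference in either direction. Listed converted reads were 6.40 per 1000 gene reads in the RBFOX2 library against 7.75 in the enzyme-only library, and 11.6% and 18.9% of the 787 well-covered genes lay lower. Reads of H3-3A, H3-3B and H2AZ1 may be shared with processed pseudogenes, which was not tested.

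H2AZ1 encodes H2A.Z.1, the main form of an H2A variant placed at promoters and enhancers. Its locus (PB.14951, chromosome 4, 99947899 to 99950576, minus strand) had 17 isoform models, 6293 gene reads in the RBFOX2 library against 5529 in the enzyme-only library. The RBFOX2 library listed 14 sites and the enzyme-only library 5, each of which was also an RBFOX2 site. Listed converted reads were 43.7 per 1000 gene reads in the RBFOX2 library against 13.6 in the enzyme-only library. Against the most that the enzyme-only library could have held unlisted at these 14 positions, 31.5 per 1000, the difference was at least 1.39-fold, at sites chosen for being listed. The well-covered genes with a lower value were 65.1% in the RBFOX2 library against 35.3% in the enzyme-only library.

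All but 1 of the 14 H2AZ1 sites lay in the 3'UTR. Of the 59 cytosines in the 3'UTR of the annotated main transcript, 13 were listed in the RBFOX2 library (22.0%) against 5 in the enzyme-only library (8.47%), from 24 nt to 354 nt after the stop codon. The remaining site, 99948469, lay in the coding sequence just before the stop codon and predicts an amino acid change. Of the unshared RBFOX2 sites, 99948135 had the most converted reads, 22 (0.350%, 0.219 to 0.529), against at most 11 unlisted reads in the enzyme-only library. Its fraction was at least 1.76-fold higher, but the intervals overlapped.

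At the 5 shared H2AZ1 sites the RBFOX2 fraction was the higher every time, and no single interval excluded 1. Position 99948209 had 36 converted reads in the RBFOX2 library (0.572%) against 18 in the enzyme-only library (0.326%), a ratio of 1.76 (0.972 to 3.29). Position 99948422 had 30 and 14 reads, a ratio of 1.88 (0.968 to 3.84). Position 99948289 had 24 and 12 reads, a ratio of 1.76 (0.845 to 3.86). These were the largest ratios of the gene. Position 99948296 had 21 and 14 reads (1.32, 0.639 to 2.80), and position 99948237 had 22 and 17 (1.14, 0.577 to 2.28). As unshared sites, 9 stood against 0, and the lower end of the interval was 0.72 on the log2 scale, or 0.62 at the common minimum of 13 reads. The log2 ratio itself was 3.98, and 1.16 with the shared sites kept.

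The only UGCAUG in H2AZ1 exons, at 99948629 to 99948634, lay in a stretch kept in 3 of the 17 isoforms and annotated as non-coding exon. The nearest edit site was 160 nt away, so none of the H2AZ1 sites was close to the hexamer. In its isoforms the editsC of the RBFOX2 library ran from 2.76% to 11.8%. The isoform with the highest share had 76 exonic cytosines and the one with the lowest had 326, and both held the same 9 unshared sites.

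**Figure D3:**
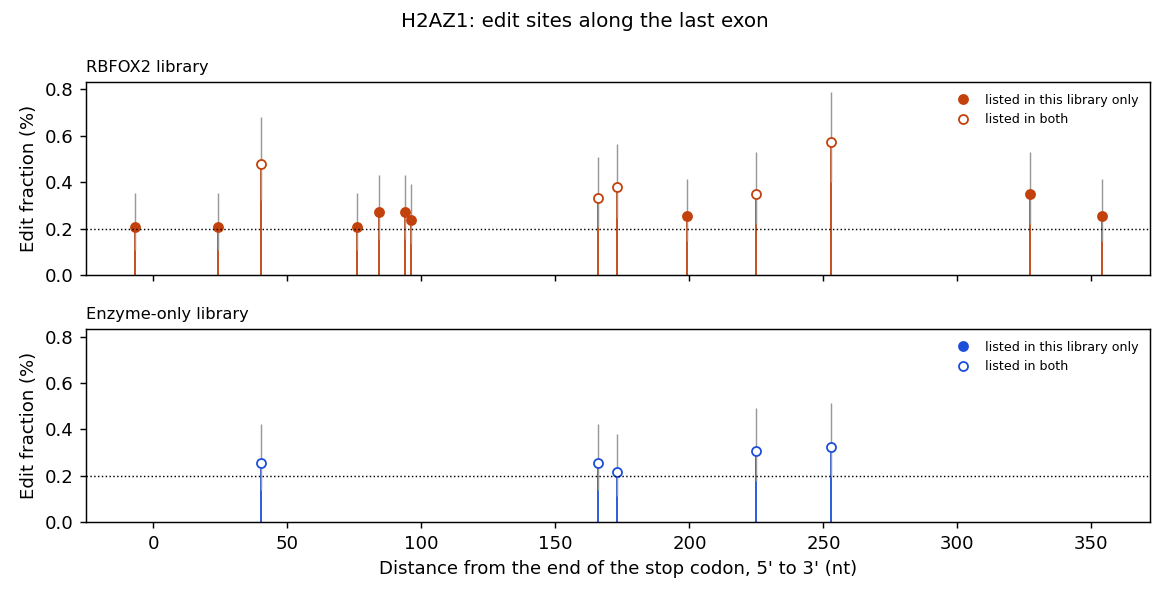
Edit fraction (% of gene reads) of each H2AZ1 site by distance from the end of the stop codon (nt, 5' to 3'), RBFOX2 library above and enzyme-only library below, with exact 95% intervals in grey. Filled points were listed in 1 library, open points in both, and the dotted line is the listing limit of 0.2%. The 5 enzyme-only sites were all listed in the RBFOX2 library, which had 9 more along the last exon.

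H2AZ2 encodes H2A.Z.2, which is nearly identical to H2A.Z.1 in protein sequence. Its locus (PB.22852, chromosome 7, 44829939 to 44848254, minus strand) had fewer reads, 699 in the RBFOX2 library against 628 in the enzyme-only library, so 2 converted reads sufficed in both. It had 5 RBFOX2 sites and 1 enzyme-only site, none shared. The scaled log2 ratio of 1.61 had an interval from −1.10 to 7.62, so a difference was not detectable at this depth. Position 44834344, 157 nt after the stop codon, had 4 converted reads in the RBFOX2 library (0.572%, 0.156 to 1.46), and the only enzyme-only site, 44834475, had 2 (0.318%, 0.0386 to 1.15). Listed converted reads were 17.2 per 1000 gene reads in the RBFOX2 library against 3.18 in the enzyme-only library. In the RBFOX2 library 3 of the 5 H2AZ2 sites were coding, against 1 of the 14 H2AZ1 sites. Its exons held no UGCAUG.

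H2AX encodes the H2A variant that is phosphorylated around DNA breaks, and its gene yields both a stem-loop mRNA and a polyadenylated one with a long 3'UTR. The locus (PB.33377, chromosome 11, 119093722 to 119095468, minus strand) had 854 gene reads in the RBFOX2 library against 847 in the enzyme-only library. There were 12 unshared RBFOX2 sites and 8 unshared enzyme-only sites, a scaled log2 ratio of 0.29 (−1.09 to 1.82). In all, 20 of 21 distinct sites lay in the 3'UTR. Position 119094297 was listed in both, with 5 converted reads in the RBFOX2 library (0.585%) against 2 in the enzyme-only library (0.236%), a ratio of 2.48 (0.406 to 26.0). The strongest unshared sites had 3 converted reads each, at 119094465 and 119094293 in the RBFOX2 library and at 119095005 and 119094281 in the enzyme-only library. Listed converted reads were 36.3 and 23.6 per 1000 gene reads. A difference between the libraries was not detectable in this gene at its depth.

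MACROH2A1 encodes macroH2A1, an H2A variant with an added macro domain that marks silent chromatin. Its locus (PB.18024, chromosome 5, 135334380 to 135399905, minus strand) had 37 isoform models, 1086 gene reads in the RBFOX2 library against 965 in the enzyme-only library. It was the gene of the group with the most enzyme-only sites, 22 against 9 in the RBFOX2 library, 3 of them shared. As unshared sites 6 stood against 19, a scaled log2 ratio of −1.85 (−3.54 to −0.55). The libraries differed in the minimum, however, with 3 converted reads needed in the RBFOX2 library against 2 in the enzyme-only library. At the common minimum of 3 reads, 6 RBFOX2 sites stood against 2 enzyme-only sites, and the log2 ratio was 1.02 (−1.26 to 4.57).

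The 2 enzyme-only MACROH2A1 sites with 3 converted reads were 135389028 and 135334979, both coding and silent. All 6 unshared RBFOX2 sites also had 3 converted reads (0.276%, 0.0570 to 0.805). The 3 shared sites were higher in the RBFOX2 library, and their intervals were wide. Positions 135334815 and 135334519 each had 4 and 2 converted reads (0.368% and 0.207%, ratio 1.78, 0.255 to 19.6), and position 135334963 had 3 and 2 (ratio 1.33, 0.153 to 16). The sites of the enzyme-only library lay largely in coding sequence, 13 of 22, against 2 of 9 in the RBFOX2 library. Many of these positions are 3'UTR in other annotated transcripts of the gene.

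H1-10 encodes the linker histone H1.10, also called H1x, from a gene without introns. The locus (PB.12333, chromosome 3, 129314772 to 129316692, minus strand) had 787 gene reads in the RBFOX2 library against 873 in the enzyme-only library. It had 4 unshared RBFOX2 sites and 8 unshared enzyme-only sites, a scaled log2 ratio of −1.18 (−3.45 to 0.64), so no difference was detectable. Position 129314818 had 3 converted reads in the RBFOX2 library (0.381%), and every unshared enzyme-only site had 2 (0.229%). The 2 shared sites were in the 3'UTR, where 129315228 had 2 and 3 converted reads (ratio 0.740, 0.0618 to 6.46) and 129315194 had 2 in each (ratio 1.11, 0.0804 to 15.3). Listed converted reads were 16.5 per 1000 gene reads in the RBFOX2 library against 24.1 in the enzyme-only library.

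Site ratios of the members were set beside those of all genes. Only H2AX and MACROH2A1 reached 20 unshared sites over both libraries, the minimum used for 3591 genes, and MACROH2A1 was past 2-fold toward the enzyme-only library, as were 14.6% of those genes (16.8% were past 2-fold toward the RBFOX2 library). In genes that were well covered and had at least 5 unshared sites at the common minimum, 35.9% were past 2-fold toward the RBFOX2 library and 8.85% toward the enzyme-only library. H2AZ1, H2AZ2, H3-3B and MACROH2A1 were among the former and H1-10 among the latter, H2AX was past neither, and H3-3A had no unshared site. A gene can pass such a minimum through the library where it is high, so this count is a description.

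Over the 17 shared sites, the RBFOX2 fraction was higher at 14 and lower at 3, with a median ratio of 1.33. The interval of the ratio lay above 1 at 1 site, H3-3B position 75778328, and below 1 at 0 sites. Among 1761 shared sites of all well-covered genes 56.0% were higher in the RBFOX2 library, and the median ratio was 1.09. Sites of 1 gene share its reads and are not independent.

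**Figure D4:**
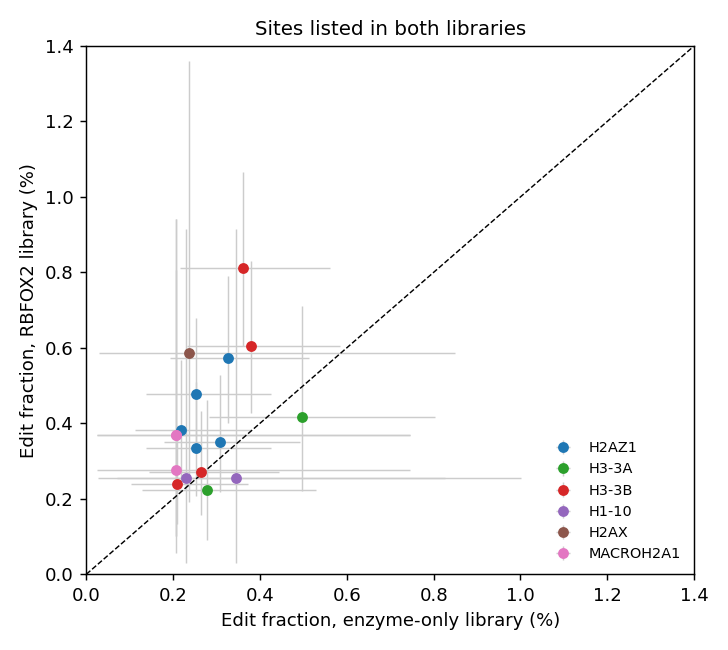
Edit fraction (%) of the 17 sites listed in both libraries, enzyme-only on the x axis and RBFOX2 on the y axis, with exact 95% intervals in grey and the diagonal dashed. Of these sites 14 lie above the diagonal, the highest being H3-3B position 75778328 at 0.812% against 0.360%, and both H3-3A sites lie below it. Both MACROH2A1 sites with 4 and 2 reads fall on the same point.

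Unshared sites within 50 nt of UGCAUG on the same strand of the genome made up 4 of 47 in the RBFOX2 library (8.51%, 2.37 to 20.4), all in H3-3B. In the enzyme-only library they made up 0 of 39, which allows a share of up to 9.03%, so the libraries' intervals overlapped. Of the 4788 exonic cytosines of the 7 genes 0.752% lay that close to the hexamer, and over all genes 3.98% of unshared RBFOX2 sites and 2.33% of unshared enzyme-only sites did. The pentamer GCAUG without a preceding U occurred elsewhere in exons of H2AZ2, H3-3B, H2AX and MACROH2A1. No edit site came closer to one of these than 264 nt.

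The base before the edited cytosine was A or U at 91.5% of unshared RBFOX2 sites (79.6 to 97.6) and 71.8% of unshared enzyme-only sites (55.1 to 85.0), against 38.6% of exonic cytosines of the 7 genes. In all well-covered genes the shares were 88.1% and 77.3%. The members differed in this share. In H2AZ1 and H3-3B every site of either library had A or U there, 14 and 18 sites, and in MACROH2A1 27 of 28 did. In H2AX 11 of 21 sites did (52.4%, 29.8 to 74.3), against 29.0% of its exonic cytosines, and in H1-10 9 of 14 (64.3%, 35.1 to 87.2), against 24.3%. In H1-10 and H2AX together, 68.4% of RBFOX2 sites (43.4 to 87.4) and 42.1% of enzyme-only sites (20.3 to 66.5) had A or U. Sites of these 2 genes rested on 2 to 5 converted reads, as those of MACROH2A1 did on 2 to 4, and fewer of their exonic cytosines follow A or U. Whether depth or base composition plays a part was not tested.

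**Figure D5:**
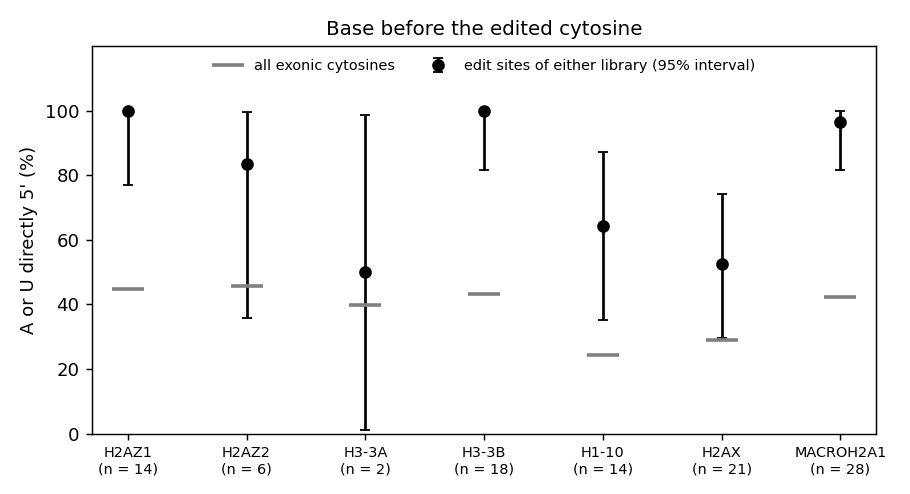
Share of edit sites of either library with A or U directly 5' of the edited cytosine (points, % with exact 95% intervals, number of sites under each gene) and of all exonic cytosines of the gene (grey bars). H2AZ1, H3-3B and MACROH2A1 lie between 96.4% and 100%, while H2AX lies at 52.4%. H3-3A has 2 sites and an interval that spans nearly the whole axis.

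By genic region, 83.0% of unshared RBFOX2 sites (69.2 to 92.4) and 51.3% of unshared enzyme-only sites (34.8 to 67.6) lay in a 3'UTR, where 30.7% of the exonic cytosines lay. Coding sequence held 17.0% (7.65 to 30.8) and 43.6% (27.8 to 60.4). The exonic cytosines were those of all isoform models merged, with stretches outside annotated coding sequence and UTRs. The 30.7% is thus lower than the 3'UTR share in the annotated main transcripts. Against it, the enzyme-only 51.3% does not by itself show an excess in 3'UTRs. The enzyme-only shares turned on MACROH2A1 positions with more than 1 annotation, and with 3'UTR counted first they became 74.4% and 20.5%. Of the 8 coding RBFOX2 sites 5 were predicted to be silent and 3 to change an amino acid. Of the 17 coding enzyme-only sites 10 were silent and 7 changed an amino acid, and none in either library created a stop codon.

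Other histone genes gave few values. Of 69 replication-dependent histone genes, whose mRNAs end in the stem-loop, 9 had a locus with a site, 12 unshared RBFOX2 and 23 unshared enzyme-only sites in all. H2BC12 had the most, 6 and 14, and was the only one to reach 20 sites (log2 ratio −1.42, −3.15 to −0.02). H2AC6 had 0 and 4, and H2AC19 with 0 and 3 tied with H4C3 with 3 and 0. Among other variant histone genes, CENPA, the centromeric H3, had 44 RBFOX2 and 15 enzyme-only unshared sites (1.26, 0.42 to 2.24). MACROH2A2, the paralogue of MACROH2A1, had 27 and 37 (−0.71, −1.49 to 0.04).

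Histone chaperones and deposition factors, the proteins that carry histones to chromatin, had a locus for 36 of 40 genes. In the 18 with at least 20 sites, 3 were past 2-fold toward the RBFOX2 library, where 16.8% of all genes were, and 4 toward the enzyme-only library, where 14.6% were. Their median log2 ratio was 0.16, against 0.08 over all genes. MCM2, a helicase subunit that binds H3-H4, had 55 and 40 sites (0.19). VPS72, a deposition factor for H2A.Z, had 39 and 24 (0.43), and CHAF1A, a subunit of the replication-coupled chaperone CAF-1, had 36 in each library (−0.26).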

How the data were processed

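Edit sites of 2 PacBio libraries were analysed, grouped by their GEO descriptions. Per the labels an Iso-Seq kit was used, whereas the methods describe a Kinnex kit, alignment to hg38 with pbmm2 and the authors' own calling of edits. The tables may thus come from another run. The authors deposited, per site, a count of converted reads, the read count of the whole gene, and their quotient as an edit fraction. Reads of isoforms lacking a position thus lower its fraction. Every listed fraction exceeded 0.002. A confidence score per site was not used. A deposited isoform table gave exon positions without expression values.

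The members and lists were chosen with earlier results of these data known. Loci were named from GENCODE 44 (bedtools 2.31.1). Sites in both libraries were left out, whereas the study removed edits shared by all its replicates and samples as putative variants. Duplicate rows of a position, 105 and 92, were counted once. Unshared sites were compared as log2 ratios with a pseudocount of 0.5, scaled by library totals. Sites mapping to several regions were counted as coding first. Bases were read from hg38 with pysam 0.24.0, and exact Clopper-Pearson 95% intervals came from scipy 1.17.1. The script was tested on simulated data. With 1 library per group no test across genes was possible. The 7 genes, the top 3 genes by sites of each list, and for each of the 7 its strongest unshared, shared and near-UGCAUG sites were named by rule. A result for 1 gene of these lists is not reported here. Alternatives were the listing minimum, shared sites kept, at least 2 converted reads, windows of 20 and 200 nt, GCAUG, region order, pseudocount 1, scaling by gene reads and GENCODE exons. Leaving out each member and the comparison of genes with 5 sites and 500 reads were added after seeing the data.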

Additional observations from a re-analysis of the deposited data

How the results depend on the processing

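No paired analysis was possible because each group was 1 library and the labels give those libraries different replicate numbers. Of 149 recomputed values 121 stayed within their limits, 27 moved and 1 reversed. The reversal was the log2 site ratio of MACROH2A1, from −1.85 to 1.02 at the common minimum of converted reads. The H2AX log2 site ratio also changed sign, from 0.29 to −0.31 with at least 2 converted reads, but was counted as within its limits. For the 7 genes together the log2 site ratio of 0.00 moved to 0.85 at the common minimum and to 0.75 without MACROH2A1, and in the other direction to −0.60 with at least 2 converted reads and −0.30 without H2AZ1. Unshared converted reads per 1000 gene reads, 21.8 and 6.51 in the RBFOX2 and enzyme-only libraries, became 37.2 and 16.7 with shared sites kept, and the enzyme-only value became 3.29 at the common minimum. The editsC of the 7 genes went from 0.982% and 0.815% to 1.34% and 1.17% with shared sites kept. The share of RBFOX2 sites near UGCAUG rose from 8.51% to 21.3% with a window of 200 nt. With 3'UTR counted first, the enzyme-only share in coding sequence went from 43.6% to 20.5% and in 3'UTR from 51.3% to 74.4%. With at least 50 sites per gene, the genes past 2-fold fell from 602 to 119 toward the RBFOX2 library and from 523 to 108 toward the enzyme-only library over all genes, from 3 to 0 and from 4 to 1 among chaperones, and from 1 to 0 enzyme-only among replication-dependent histone genes, since fewer genes were compared. Of 92 values for single members, 79 stayed and 12 moved. At H2AZ1 and H3-3B the listing limit hid up to 11 and 10 converted reads per enzyme-only site. At H2AZ2, H1-10, H2AX and MACROH2A1 sites rested on few reads.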
